A study of Mus musculus with 18 samples.

Results

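The genes examined were the colony stimulating factor Csf1 and the receptor chains Csf1r, Csf2ra, Csf2rb, Csf2rb2 and Csf3r, which are 6 of the 20275 genes in the matrix of raw mRNA counts. They were chosen by name, and every one of them was measured in all 9 mRNA libraries. Colony stimulating factors are secreted proteins that drive the survival, division and maturation of myeloid cells. M-CSF, the product of Csf1, and IL-34 both act through the receptor tyrosine kinase encoded by Csf1r, which marks monocytes, macrophages and osteoclasts. GM-CSF binds an alpha chain encoded by Csf2ra that pairs with the common beta chain encoded by Csf2rb, and in mice the related gene Csf2rb2 encodes a second beta chain used by IL-3. G-CSF acts through the product of Csf3r on neutrophils and their precursors.

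The libraries were made from bone marrow (BM) of C57B6/J mice by droplet single-cell sequencing of transcripts together with antibody tags. Hematopoietic progenitors (HPs) were sorted as Lin-Kit+ cells and stroma as CD45-Ter119- cells at E16.5, E18.5 and P0 and from adult mice, and no group carried a transgene or a treatment. Per the study's methods, stromal preparations were digested with warm collagenase, while HPs were crushed out of bone in cold buffer. Compartment and preparation thus cannot be told apart here. HPs of E16.5 had 2 libraries and all other groups 1, giving 5 libraries of HPs and 4 of stroma. Each library was made from BM pooled over several animals, and the labels do not say that both E16.5 HP libraries came from separate pools, so the spread between libraries may be technical.

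Libraries held between 560 and 14084 cells and 13974733 to 194892476 UMIs (unique molecular identifiers, each standing for 1 captured transcript), with medians of 6747 to 23291.5 UMIs per cell. Of the 56201 cells, 2472 had a barcode sequence that also occurred in another library. Transcripts of Ptprc, which encodes the CD45 used to sort stroma, came to 11 UMIs or fewer in each stromal library. The study's methods say that contaminating blood cells were taken out of its stromal data after sequencing, and the deposited stromal libraries hold fewer cells than the study's text gives, while the HP libraries do not. Low levels of blood cell transcripts in stroma, the receptor genes included, may follow from the sort or from that removal, which cannot be told apart here. Kit, used to sort HPs, was at 108.8 to 348 CPM in the HP libraries, but several E18.5 clusters described here held little of it, with 15.6 CPM in Bas1, 5.69 in Mono2, 4.91 in Neu2 and 0 UMIs in Mono1iii. Levels are given as UMIs of the gene per 1000000 UMIs of all genes (CPM), with exact 95% Poisson intervals that cover counting error only. In such sums fewer cells of a type and less RNA per cell cannot be told apart. The authors deposited a cluster code for every cell, and 135 of the 140 clusters held at least 50 cells, of which 70 were HP and 65 stromal clusters. Since the clusters were made from the transcripts of the same cells, levels by cluster are descriptions and carry no test. With 1 library per stage, differences between stages were not tested.

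Positions are those of the GENCODE vM21 annotation on GRCm38, the build of the counts, and that of Csf1r is given with its levels. Csf1 lies on chromosome 3 (107741048 to 107760469, minus strand), Csf2ra on chromosome 19 (61223957 to 61228429, minus strand) and Csf3r on chromosome 4 (126024550 to 126044440, plus strand). Csf2rb (78325752 to 78353847, plus strand) and Csf2rb2 (78282507 to 78305721, minus strand) are neighbours on chromosome 15, with 20030 bases between them. The longest annotated transcripts of both beta chain genes were 91.5% identical over 4668 aligned bases. Over their last 1000 bases, where a 3′ library is read, identity was 87.6%, and no stretch of 50 bases was shared. A read that falls in the shared part of the transcripts could still be counted for either gene or for none.

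RefSeq promoter stretches on GRCm38.p6 were matched for 4 of the 6 genes, namely Csf1, Csf2ra, Csf2rb2 and Csf3r. The 250 bases before the start site were searched on both strands for core letters of 3 families of blood cell factors, GAGGAA for PU.1, TTGCNNAA for C/EBP factors and AGATAA for factors of the GATA family. GAGGAA or its reverse complement occurred before Csf2ra (2 times, side by side), Csf2rb2 and Csf3r, against 23.3% of 32851 promoters of the same length. The letters TTGCNNAA and AGATAA, which 9.56% and 9.99% of promoters held, occurred in none of the 4. The stretch before Csf1 held none of the 3 sets of letters. Other forms of these motifs were not searched, so sites with other letters may be present. Stretches for 2 receptor chains with unlike stromal patterns are shown 5′ to 3′, with the PU.1 letters in capitals. The one before Csf2ra is chr19:61228419-61228668 on the minus strand and the one before Csf2rb2 is chr15:78305722-78305971 on the minus strand. The last bases before Csf2ra also lie in an exon of another transcript of the gene, and that exon reaches into both of its matches. The stretch before Csf3r likewise overlaps an exon of an annotated transcript of that gene, and its match lies inside the annotated gene span. Matches are descriptions of these letters and not measured binding.
Csf2ra: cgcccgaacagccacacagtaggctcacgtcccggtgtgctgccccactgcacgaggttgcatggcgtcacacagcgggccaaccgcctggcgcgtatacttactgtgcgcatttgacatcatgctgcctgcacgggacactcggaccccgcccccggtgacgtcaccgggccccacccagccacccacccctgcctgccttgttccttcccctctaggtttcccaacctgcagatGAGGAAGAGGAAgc
Csf2rb2: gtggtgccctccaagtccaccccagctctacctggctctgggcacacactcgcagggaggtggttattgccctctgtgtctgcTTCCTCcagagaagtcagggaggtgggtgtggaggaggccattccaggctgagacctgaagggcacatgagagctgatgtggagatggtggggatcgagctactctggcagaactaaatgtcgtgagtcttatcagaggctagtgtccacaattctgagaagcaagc

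The first comparison asked which of the genes differed between stroma and HPs across the 4 stages. All 5 receptor chains were lower in stroma than in every HP library of the same stage, whereas Csf1 was not. Csf1r was measured at 155.8 and 12.1 CPM in both E16.5 HP libraries, 77.7 in that of E18.5, 24.4 in that of P0 and 18.2 in adult HPs. In stroma it was at 0.145, 0.196, 0.185 and 0.490 CPM in the same order of stages, so every stromal library lay below every HP library. Csf3r was measured at 6.80 and 1.37 CPM in the E16.5 HP libraries and at 19.0, 13.8 and 24.0 CPM in those of E18.5, P0 and adult BM. Its stromal levels were 0.0513, 0.0178, 0.0462 and 0.0980 CPM, from 2 to 9 UMIs per library. Among the 6 genes Csf3r alone was highest in the adult HP library, and its lowest HP levels were in both E16.5 libraries.

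The beta chains were highest in the first E16.5 HP library and lowest in adult HPs. Csf2rb was measured at 151.4 and 55.3 CPM in the E16.5 HP libraries and at 83.7, 47.7 and 27.2 CPM in the HPs of later stages, in order. In stroma it was at 0.0684, 0.311, 0.344 and 2.58 CPM from E16.5 to adult. Adult stroma thus held more Csf2rb per UMI than any earlier stromal library, a difference between single libraries that was not tested. Csf2rb2 was measured at 20.3 and 7.87, 13.9, 5.08 and 2.80 CPM in the HP libraries, and at 0.128, 0.151, 0.113 and 1.47 CPM in stroma. Csf2ra, the alpha chain, differed less between the compartments than the other receptor chains up to P0, whereas in the adult Csf2rb2 differed less. Its levels were 44.9 and 18.6, 33.3, 27.9 and 42.2 CPM in HPs and 11.9, 11.4, 11.5 and 9.23 CPM in stroma.

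Csf1 was the gene whose order between compartments turned with stage. In HPs it was measured at 9.73 and 2.74 CPM in the E16.5 libraries, then 29.7 (28.4 to 31.1), 11.7 (11.1 to 12.3) and 4.34 (3.83 to 4.91) CPM at the later stages. In stroma it was at 9.70, 13.0 (12.4 to 13.7), 13.6 (13.1 to 14.1) and 64.3 (62.7 to 66.0) CPM in order of stage. Stroma was below the HPs at E18.5, above them at both later stages, and level with 1 of both HP libraries at E16.5. At E18.5 the HP cluster coded Bas1, 7.88% of the cells, held 65.4% of the HP Csf1 UMIs. The order of the compartments without that cluster was not tested.

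**Figure D1:**
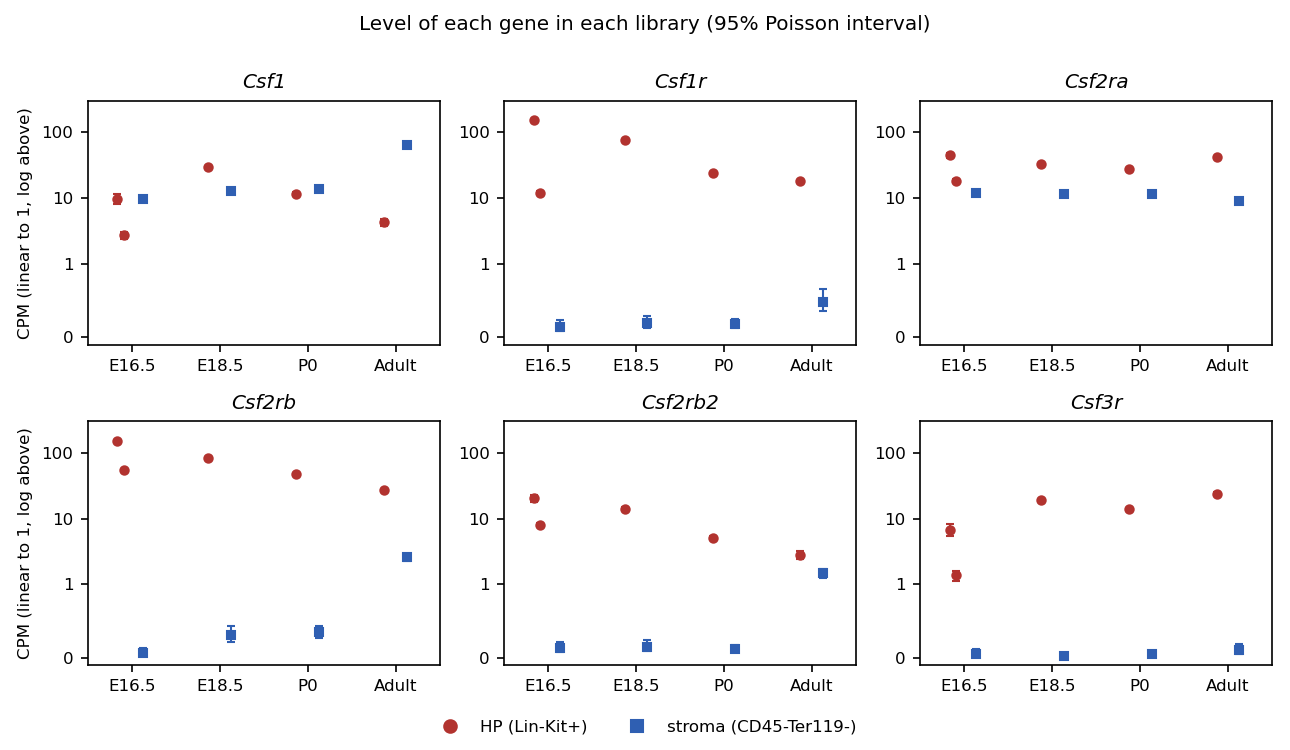
CPM (log axis that is linear from 0 to 1) of the 6 genes in each of the 9 libraries by stage, with HP and stromal libraries in separate colours and exact 95% Poisson intervals as bars. The 5 receptor genes are lower in stroma at every stage, while Csf1 rises to 64.3 CPM in adult stroma.

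In the edgeR quasi-likelihood fit over the 9 libraries, with stage as a covariate and Benjamini-Hochberg adjustment over 18407 genes, 5 of the 6 genes passed the threshold of 0.05, all lower in stroma. Across all genes tested 57.8% were called, 25.8% as lower and 32% as higher in stroma, so a call in itself was common between compartments this unlike. The log2 fold change of stroma over HP was -7.83 for Csf3r (SE 0.84, adjusted p = 0.000378), -7.48 for Csf1r (SE 1.12, adjusted p = 0.00151), -7.25 for Csf2rb (SE 1.26, adjusted p = 0.0029) and -5.19 for Csf2rb2 (SE 1.15, adjusted p = 0.00781). For Csf2ra it was -1.53 (SE 0.32, adjusted p = 0.00647). For Csf1 it was 0.83 with an SE of 0.76 and missed the threshold (adjusted p = 0.38), with stroma above every HP library of its stage at P0 and in the adult only. The median over all genes tested was 0.05.

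Both E16.5 HP libraries differed in every one of the 6 genes, and in each the first library was the higher one. The cluster coded Mono/Mast made up 28.8% of the cells of the first library and 2.99% of the second. Within that cluster Csf1r also differed between them, at 514.8 CPM in 161 cells against 231.6 CPM in 142 cells. Csf3r differed likewise, at 18.4 against 5.67 CPM, and Mono/Mast held 74.7% of the first library's Csf3r UMIs. Clusters coded TCell lay almost wholly in the second library, with all 539 TCell1, 296 TCell4 and 153 TCell6 cells. It also held 486 of 487 TCell2, 481 of 485 TCell3 and 186 of 199 TCell5 cells. In that library their Csf1r levels lay between 0.437 (TCell6) and 2.98 CPM (TCell5). The part of cell numbers and of level per cell in the library values was not tested.

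Csf1, the ligand, was highest in clusters with basophil genes among HPs. At E18.5 the cluster coded Bas1, 7.88% of the cells, held 65.4% of Csf1 UMIs at 676 CPM (640 to 715), followed by Mono2 at 85.4 and Eos/Bas2 at 71.3 CPM. At P0 the highest were Eos/Bas3 at 231 CPM (197 to 271), Bas2 at 77.6 with 62.5% of the UMIs, and Mono2 at 39.2. In adult HPs Eos/Bas4, 2.94% of the cells, was at 110 CPM (94.4 to 128) and held 68.1% of the UMIs. Basophil genes fixed as a marker list (Mcpt8, Prss34, Ms4a2, Fcer1a, Gata2 and Il4) were the leading list in these clusters and in Eos/Bas1, except in Mono2 (macrophage genes) and Eos/Bas2 (eosinophil genes). In Bas1 and Eos/Bas3 none of the list was among the 10 genes with the largest fold, and Eos/Bas3 was shallow, with a median of 5040 UMIs against 19447.5 in its library. At E16.5 Eos/Bas1 was at 119 CPM, from 231 CPM in 18 cells of the first library and 84.8 CPM in 79 cells of the second. It held 56.6% and 34.6% of their Csf1 UMIs, and in the second library Mast1 (24.7%) and Mast2i (17.9%), at lower levels in more cells, together held more. The next cluster at E16.5, Bcell1, was at 5.20 CPM. The median HP cluster was between 1.24 and 9.20 CPM at each stage, so the leading clusters stood well above the rest of the HPs.

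After each cell was thinned to 1000 UMIs, 49.8% of Bas1 cells held a Csf1 UMI (43.7 to 55.9, exact Clopper-Pearson), against 0 of 152 cells of the E18.5 cluster Bcell1, which allows up to 1.97% of cells with a UMI at that depth and sets no limit on cells that express the gene. Without thinning the shares were 93.8% in Bas1 (median 6565.5 UMIs per cell) and 11.2% in Bcell1 (median 22806 UMIs). Thinned shares were 26.2% in Eos/Bas3 at P0 and 7.22% in Eos/Bas1 at E16.5. In Bas1, 92.7% of cells held UMIs of both Csf1 and Csf2rb without thinning, where the separate shares were 93.8% and 98.2%.

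In stroma Csf1 was at 41.6 CPM or less in every cluster up to birth and reached its highest level in an adult cluster. The highest clusters were F3 at 29.1 CPM at E16.5, F3ii and F3i at 41.6 and 41.0 CPM at E18.5, and F7 and F3i at 38.1 and 35.5 CPM at P0. The median stromal cluster was at 9.12, 9.27 and 12.8 CPM at these stages. In the adult the cluster coded CARs (CXCL12-abundant reticular cells, perivascular cells that supply factors to HPs) was at 422 CPM (399 to 446). The clusters F8 and F13 followed at 184 (177 to 191) and 168 (147 to 192) CPM, and the median adult stromal cluster was at 42.0 CPM. CARs held 21.4% and F8, whose leading marker list was fibroblast, 45.3% of adult stromal Csf1 UMIs. All 7 genes of the CAR list (Cxcl12, Lepr, Kitl, Adipoq, Ebf3, Foxc1 and Angpt1) were detected in CARs, where they summed to 25290 CPM. Thinned to 1000 UMIs, 32.3% of CARs (27.5 to 37.4) and 16.4% of F8 cells (14.3 to 18.7) held a Csf1 UMI, against 90.3% and 75.9% unthinned at median depths of 7185 and 11706 UMIs.

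**Figure D2:**
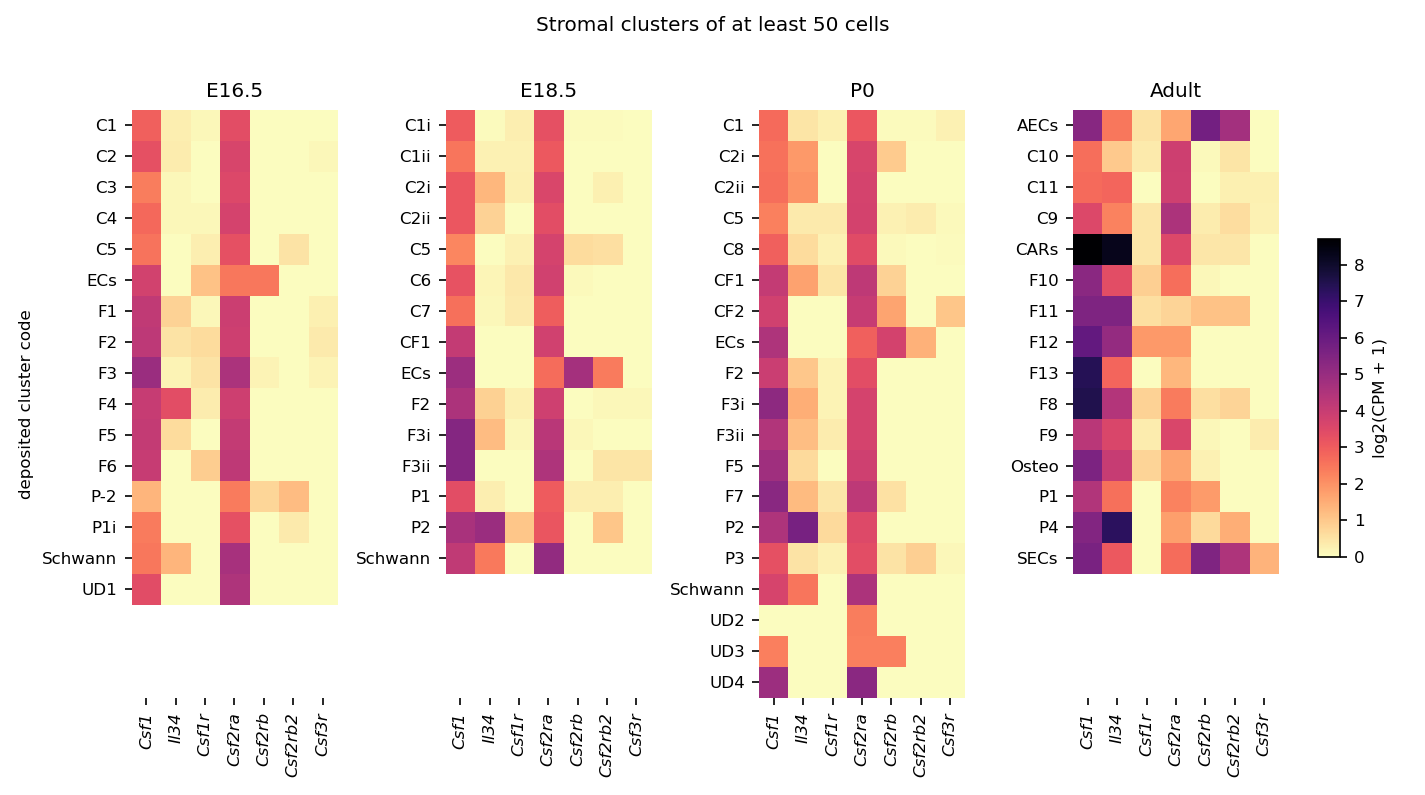
Level as log2(CPM + 1) of Csf1, Il34 and the 5 receptor genes in the 65 stromal clusters of at least 50 cells, ordered by stage. Csf1 and Il34 are highest in adult CARs (422 and 309 CPM), Csf2ra is low throughout, at 37.5 CPM or less, and Csf2rb with Csf2rb2 is seen in endothelial clusters.

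Csf1r, the receptor for M-CSF and IL-34, followed macrophage and monocyte clusters. The gene lies on chromosome 18 (61100598 to 61132149, plus strand), where one of its exons overlaps Hmgxb3 on the other strand. At E16.5 Mono/Mast held 85.3% of HP Csf1r UMIs at 376 CPM (363 to 390), followed by UD2 at 119 CPM and HSPC1 at 49.3. In the second E16.5 library alone UD2 was at 73.6 CPM (38.0 to 128.6), from 12 UMIs. At E18.5 Mono2 was at 1900 CPM (1800 to 2005), Mono1iii at 830 and Mono1ii at 418. At P0 Mono2 was at 564 CPM, Mono1 at 285 and Mast4 at 137 (89.5 to 200.8, from 26 UMIs). UD2 and Mast4 were shallow, with medians of 1049 and 564.5 UMIs per cell. Macrophage genes (C1qa, C1qb, C1qc, Mrc1, Adgre1, Cd68 and others) were the leading list in Mono/Mast and in Mono2 at both stages, summing to 7158, 21440 and 8070 CPM. P2ry12, Fcrls and Crybb1 were among the 10 genes with the largest fold in both Mono2 clusters. The marker lists did not separate kinds of macrophage. Whether Mono2 cells came from BM or from other tissue of the dissected skeleton was not tested.

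In adult HPs the highest Csf1r levels were 380 CPM in Mast4ii (275 to 512, from 43 UMIs), 89.4 in Mono4 and 49.2 in Mono6. Mast4ii was shallow, with a median of 798 UMIs per cell, and its leading list was macrophage despite the code. Mono4, with 47.6% of adult HP Csf1r UMIs, had macrophage genes at 49.6 CPM. Clusters coded Mono thus differed widely in macrophage transcripts, and Mono6 was led by dendritic cell genes. No stromal cluster exceeded 2.60 CPM (F12, adult, 6 UMIs).

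After thinning to 1000 UMIs, 82.5% of E18.5 Mono2 cells held a Csf1r UMI (72.4 to 90.1), against 67.2% of Mono1iii, 55.8% of Mono2 at P0 and 34.2% of Mono/Mast at E16.5. In E18.5 Bcell1 the thinned share was 0 of 152 cells, with 1.32% unthinned at a median of 22806 UMIs. In E16.5 TCell2 it was 0 of 487 cells, with 1.23% unthinned at a median of 23006 UMIs.

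The receptor protein could be compared with its transcript in 1 library, a comparison chosen after the antibody counts had been seen. CD115 is the protein encoded by Csf1r, and its antibody gave 3791 counts in the second E16.5 HP library and 0 counts in each of the other 8 libraries. Whether the antibody was part of their panels is not given in the sources used here, so those counts are no measure of absence. Mono/Mast, the cluster with the most Csf1r there (231.6 CPM), had 3.54 CD115 counts per cell (3.23 to 3.86), against 0.798 over all 4752 cells. HSPC1 and DC1 followed at 1.48 and 1.43 counts per cell, and the other clusters of at least 50 cells lay between 0.409 and 1.00. Mono/Mast also had more counts of all antibodies, 220.2 per cell against 104.8 over all cells. Relative to 1000 counts of all antibodies, CD115 was at 27.3 in DC1, 23.4 in HSPC1, 21.6 in Bcell1 and 16.1 in Mono/Mast, so the order of clusters changed with the denominator. Outside Mono/Mast, the 145 cells with a Csf1r UMI had 1.59 CD115 counts each (1.39 to 1.80) and the 4465 cells without one 0.685 (0.661 to 0.710). These cells come from clusters of different CD115 level, and within HSPC1, which held 56 of the 145, the values were 1.68 (1.36 to 2.05) and 1.39 (1.17 to 1.62). The former cells also had more antibody counts in all (113.4 against 100.9 per cell) and greater depth (medians of 23259 and 18587 UMIs).

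**Figure D3:**
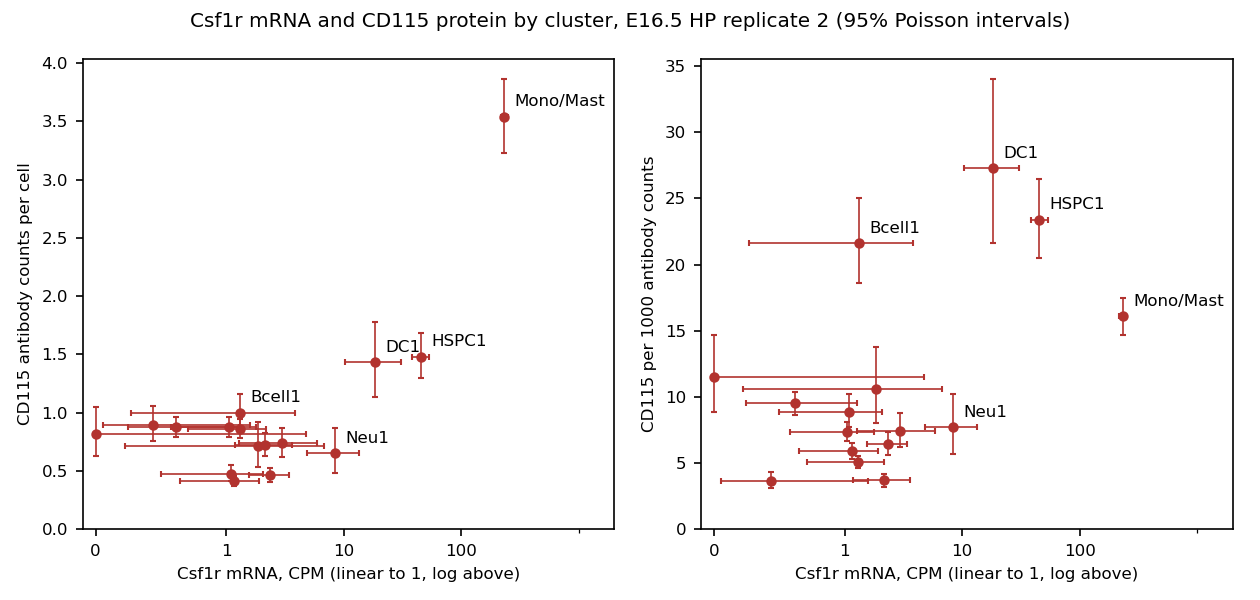
CD115 antibody counts per cell (left) and per 1000 counts of all antibodies (right) against Csf1r CPM, for clusters of at least 50 cells in the second E16.5 HP library, with exact 95% Poisson intervals. Mono/Mast is highest per cell at 3.54, and DC1 is highest per 1000 antibody counts at 27.3.

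Csf2ra, the alpha chain for GM-CSF, was highest among HPs in neutrophil, dendritic and monocyte clusters. The highest clusters were Neu1 at 130 CPM (116 to 147), DC1 at 128 and Mono/Mast at 69.2 at E16.5, the last from 97.8 and 39.4 CPM in the first and second library. At E18.5 they were Mono1iii at 199 (157 to 249), Mono1i at 158 and Neu2 at 147 CPM, and their intervals overlapped. At P0 DC3, MyP3 and Mono1 were at 109, 90.5 and 82.6 CPM, and in the adult Neu3, Mono6 and MyP5 were at 103, 91.9 and 83.1 CPM. The median HP cluster was at 15.4, 32.0, 26.1 and 24.9 CPM from E16.5 to adult, and the median stromal cluster at 12.7, 11.1, 12.0 and 4.26 CPM. At such levels UMIs from free RNA were not told apart from expression, and E18.5 Bcell1 cells held a Csf2ra UMI in 34.9% of cases unthinned and in 0 of 152 after thinning. The cluster coded Schwann was among the 3 highest at E16.5, E18.5 and P0, at 23.9, 32.9 and 22.3 CPM, and UD4 at P0 reached 37.5. In adult stroma the clusters C9, C10 and C11 were highest, at 22.2, 13.5 and 13.3 CPM, and held 30.7%, 21.9% and 7.90% of the gene's UMIs.

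A GM-CSF receptor needs both chains. Without thinning, UMIs of Csf2ra and Csf2rb were found together in 62.2% of Neu1 cells (50.1 to 73.2), 56.0% of Mono1i (48.7 to 63.2) and 47.9% of MyP3 (42.6 to 53.2). The products of the separate shares in these clusters were 63.0%, 53.8% and 47.0%, all inside those intervals. In E18.5 Bcell1 (median 22806 UMIs) 5.92% of cells held both, and the median depths of Neu1, Mono1i and MyP3 were 26483.5, 11504 and 22712 UMIs. In Bas1, where Csf2rb was highest, 17.9% of cells held both, the same share as held a Csf2ra UMI.

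Csf2rb and Csf2rb2, the beta chains, shared with Csf1 their highest HP clusters at E16.5, E18.5 and P0, which were Eos/Bas1, Bas1 and Eos/Bas3. Csf2rb was at 1063 CPM in Bas1 (1016 to 1111), with 36.5% of the E18.5 UMIs, followed by Mono1iii at 172 and Eos/Bas2 at 171. At E16.5 Eos/Bas1 was at 307 CPM, Mast1 at 168 and Mast2i at 150, and Mast1 held 34.9% of the UMIs. Eos/Bas1 differed between the E16.5 libraries here too, at 657 and 198 CPM. At P0 Eos/Bas3, Mast3 and Bas2 were at 422, 255 and 156 CPM. In the adult Mast4i (22 UMIs), Mast4ii (15 UMIs) and Eos/Bas4 were at 147, 133 and 121 CPM, with overlapping intervals, both Mast4 clusters having medians under 1000 UMIs. Csf2rb2 was at 267 CPM in Bas1 (244 to 292), which held 55.2% of its E18.5 UMIs. It was at 133 CPM in Eos/Bas3 at P0, 73.9 in Eos/Bas1 at E16.5 (165.1 and 45.6 in the first and second library) and 35.9 in Eos/Bas4 in the adult. Thinned to 1000 UMIs, 60.4% of Bas1 cells held a Csf2rb UMI (98.2% unthinned) and 28.6% a Csf2rb2 UMI (77.7% unthinned), against 0.658% of E18.5 Bcell1 for either gene (13.8% and 3.95% unthinned).

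**Figure D4:**
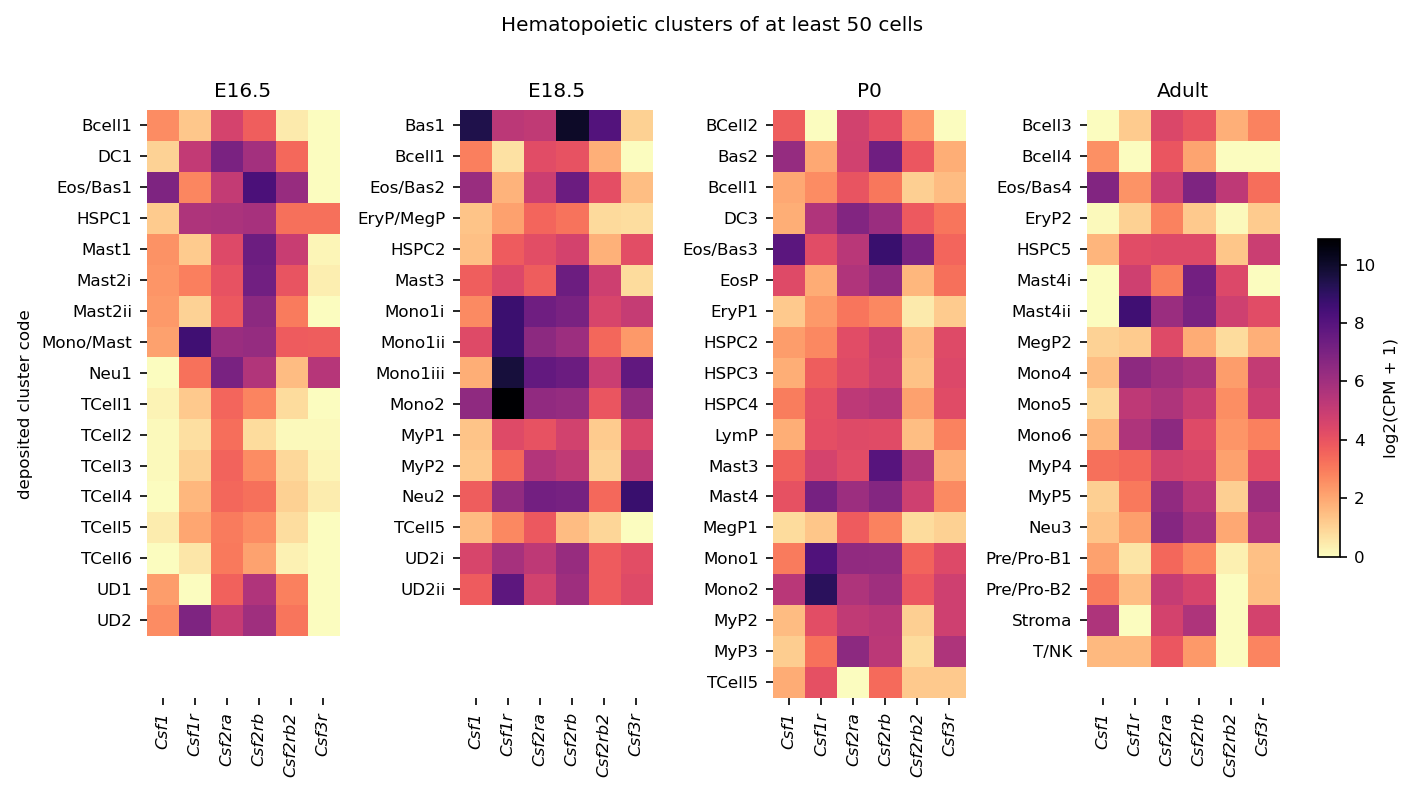
Level as log2(CPM + 1) of the 6 genes in the 70 HP clusters of at least 50 cells, ordered by stage. Csf1, Csf2rb and Csf2rb2 are all at their highest in Bas1 (676, 1063 and 267 CPM), Csf1r peaks in Mono2 at E18.5 (1900 CPM) and Csf3r in Neu2 (432 CPM).

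In adult stroma both beta chains were highest in endothelial clusters, and so were Csf2rb at the earlier stages and, from 4 UMIs each, Csf2rb2 at E18.5 (4.25 CPM) and P0 (1.64 CPM). Adult arterial (AECs) and sinusoidal (SECs) endothelial cells were at 54.5 (45.5 to 64.6) and 44.8 (35.6 to 55.5) CPM of Csf2rb and together held most of the gene's adult stromal UMIs, with 55.3% in AECs and 35.0% in SECs. The endothelial clusters coded ECs were at 4.60 (1.25 to 11.8, 4 UMIs) at E16.5, 25.5 (16.4 to 38.0) at E18.5 and 12.3 (8.29 to 17.5) at P0. Csf2rb2 was at 26.2 CPM in AECs and 22.1 in SECs. Its few stromal UMIs at earlier stages lay mostly elsewhere. ECs held 0 of 15 at E16.5, 4 of 17 at E18.5 and 4 of 22 at P0, while C5 held 6, 6 and 7 of them, P-2 6 at E16.5 and P3 10 at P0. All 7 endothelial markers were detected in AECs and in SECs. Csf2ra UMIs were found in 1.25% of AECs without thinning, against 18.2% for Csf2rb at the same depth (median 4520.5 UMIs).

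The balance of the 2 beta chains differed between clusters. Csf2rb2 made up 32.5% of the UMIs of the pair in AECs (25.9 to 39.6) and 33.1% in SECs (24.9 to 42.1), and 20.1% in Bas1 (18.5 to 21.7), 23.9% in Eos/Bas3 and 22.8% in Eos/Bas4. Bas2, also led by basophil genes, was lower at 8.14% (6.99 to 9.41). In Mast1 at E16.5 it was 15.2% (14.0 to 16.6) and in Mast2ii 7.09% (5.59 to 8.84). In myeloid progenitors it was 1.86% in MyP3 (0.687 to 4.01) and 2.79% in MyP2 at E18.5 (1.34 to 5.06). By library the share lay between 9.34% and 14.2% in HPs and between 24.7% and 65.2% in stroma, the latter from 23 UMIs at E16.5. Stromal clusters below the limit of 100 UMIs of the pair had higher shares, as in P3 at P0 (66.7%, 38.4 to 88.2, 15 UMIs), or lower ones, as in ECs at E18.5 (14.3%, 4.03 to 32.7, 28 UMIs) and at P0 (11.8%, 3.30 to 27.5, 34 UMIs). Both genes were counted in the same cells, and how reads of the similar transcripts were divided between them was not tested.

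**Figure D5:**
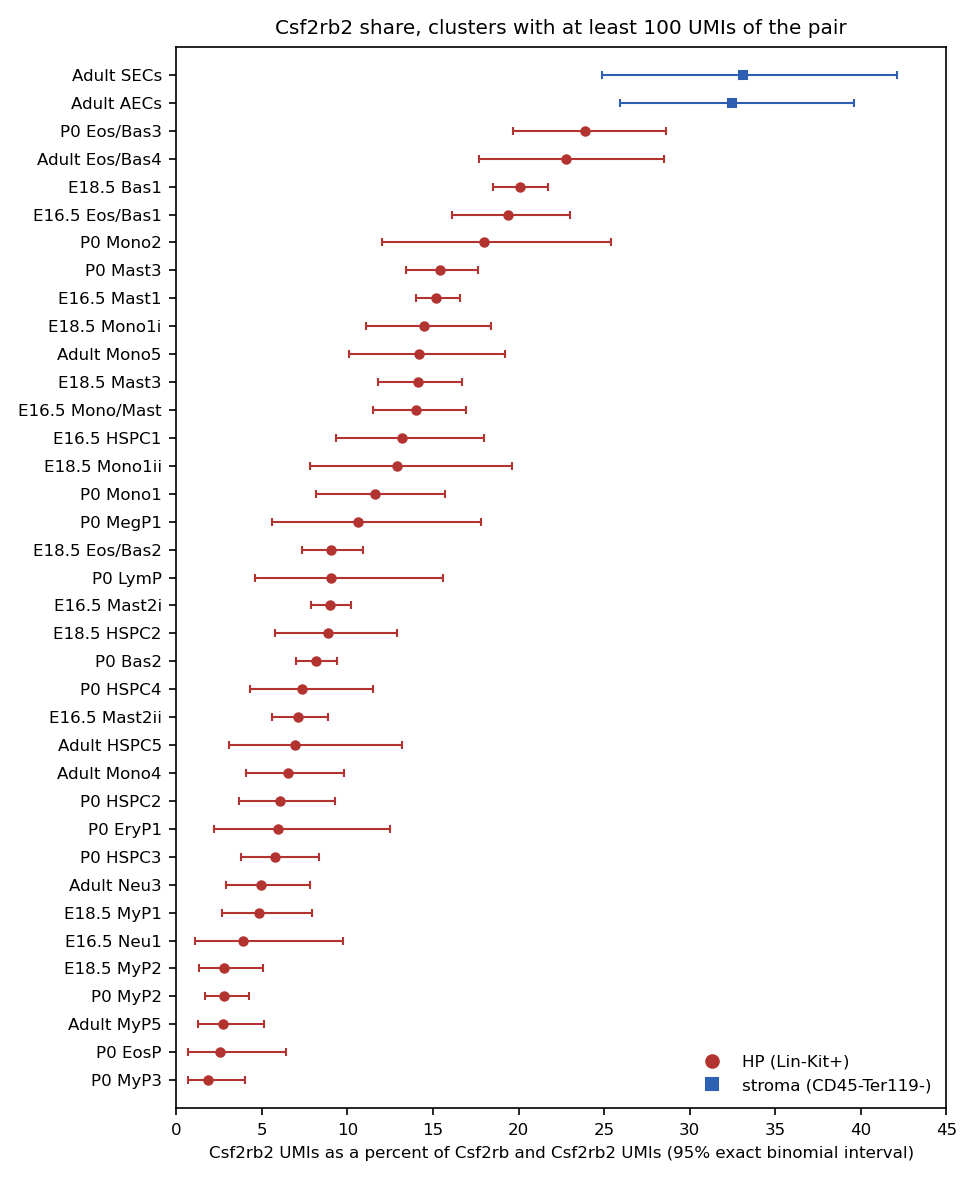
Csf2rb2 as percent of the UMIs of Csf2rb and Csf2rb2 in clusters with at least 100 UMIs of the pair, with exact 95% Clopper-Pearson intervals. Adult endothelial clusters lie near 33%, Bas1, Eos/Bas3 and Eos/Bas4 between 20.1% and 23.9%, Bas2 at 8.14%, and myeloid progenitors such as MyP3 at 1.86%.

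Csf3r, the G-CSF receptor gene, was highest in neutrophil clusters at E16.5 and E18.5 and in the clusters coded MyP at P0 and in adult HPs. At E16.5 Neu1 was at 41.4 CPM (33.3 to 51.0) with 39.4% of the UMIs, and 72 of its 74 cells came from the second library. Mono/Mast and HSPC1 followed at 12.2 and 8.42 CPM. At E18.5 Neu2 was at 432 CPM (371 to 501), Mono1iii at 202 and Mono2 at 81.1, while MyP2, at 37.0 CPM, held the most UMIs (30.4%). At P0 MyP3 was at 48.3 CPM, and MyP2 and Mono2 were both at 26.3 to 26.4 CPM. A P0 cluster of 28 cells that shares the code Neu2, below the limit of 50 cells and named after its value was seen, was at 380 CPM (264 to 528). In adult HPs MyP5 was at 65.1 CPM (59.6 to 70.8) with 37.5% of the UMIs, Neu3 at 46.9 and Mono4 at 33.2. No stromal cluster exceeded 1.62 CPM (SECs, 3 UMIs).

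Csf3r was also measured in the stem and progenitor clusters. HSPC2 was at 17.5 CPM at E18.5 and 19.1 at P0, HSPC3 and HSPC4 at 19.9 and 18.3 at P0, and HSPC5 at 28.8 (24.5 to 33.7) in the adult. At E16.5 HSPC1 was at 8.42 CPM (5.83 to 11.8), with dendritic cell genes as its leading list. Thinned to 1000 UMIs, 43.7% of E18.5 Neu2 cells (31.9 to 56.0) and 21.3% of Mono1iii cells held a Csf3r UMI. In Bcell1 of the same library 0 of 152 cells did, both thinned and unthinned. Unthinned UMIs of Csf1r and Csf3r were found together in 60.7% of Mono1iii and 46.2% of E18.5 Mono2 cells. The separate shares of Csf1r and Csf3r were 95.1% and 65.6% in Mono1iii, and 100% and 46.2% in Mono2.

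The other ligands and receptors of the family were described in the same clusters. Il34, the second ligand of the Csf1r product, was at 0.513, 0.898, 1.89 and 23.9 CPM in stroma from E16.5 to adult, and at most 0.324 CPM in an HP library. Like Csf1 among stromal clusters, it was highest in adult CARs, at 309 CPM (290 to 330), followed by P4 at 153 CPM. At E18.5 and P0 it was highest in P2, at 29.5 and 49.7 CPM. It was higher in stroma (log2 fold change 6.94, adjusted p = 0.0235), a call lost in 3 of 10 alternatives, with adjusted p up to 0.0909. Csf2, the gene for GM-CSF, reached at most 2.08 CPM in any library and 7.43 CPM in the E16.5 cluster TCell5 (22 UMIs). TCell5 held 13.5% of the E16.5 HP Csf2 UMIs, while Mast1, Mast2i and Mast2ii held 37.4%, 19.6% and 14.7%. Mast3 held 15 of 16 HP UMIs at E18.5 and 6 of 8 at P0. Csf2 was not past the threshold (log2 fold change -3.97, adjusted p = 0.147), although 2 of 10 alternatives called it, with adjusted p down to 0.00274. Csf3, the gene for G-CSF, was not tested, and its highest cluster was adult SECs at 5.39 CPM from 10 UMIs.

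Il3ra and Il5ra encode alpha chains that pair with the beta chain. Among HP clusters Il3ra was highest in the same cluster as Csf2rb2 at each stage. It was at 147 CPM in Bas1, 110 in Eos/Bas1, 109 in Eos/Bas3 and 79.3 in Eos/Bas4. In stroma it was at 82.7 CPM in adult CARs, and ECs were its highest cluster at E18.5 (30.8 CPM) and P0 (30.3 CPM). Il5ra was highest in EosP at P0 (64.1 CPM) and in Mast1 at E16.5 (25.1 CPM), and at 4 UMIs or fewer in each stromal library. Both were lower in stroma, Il3ra with a log2 fold change of -1.93 (adjusted p = 0.0075) and Il5ra with -7.24 (adjusted p = 0.000509). Of the 40 ligands, receptors, signal transducers, negative regulators and transcription factors listed for this pathway, 37 were tested, of which 23 were lower in stroma, 7 higher and 7 not past the threshold. Their median log2 fold change was -1.91, against 0.05 over all genes. The lists were chosen with earlier results of these data known, and many of their genes act in blood cells, which the stromal sort left out. This contrast and the counts by role below are therefore descriptions of the lists and no test of them.

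By role, 13 of 17 signal transducers were lower in stroma and 2 higher, 5 of 8 transcription factors lower and 1 higher, and 3 of 8 negative regulators lower and 3 higher. Over all genes tested these shares were 25.8% lower and 32% higher. Socs3, an inhibitor of cytokine receptor signalling that binds the G-CSF receptor, was at 231 to 468 CPM in stroma and 1.01 to 7.94 CPM in HPs (log2 fold change 6.15, adjusted p = 0.00031). Klf4, a transcription factor of monocytes and of many stromal cells, was at 360 to 791 CPM in stroma and 6.79 to 19.3 in HPs (log2 fold change 5.43, adjusted p = 9.22e-05). Socs1, a related inhibitor, was higher at 2.24 (adjusted p = 0.0476), a call lost in 6 of 10 alternatives. At E16.5 it was lower in stroma (25.7 CPM) than in both HP libraries (32.9 and 38.4 CPM). Lower in stroma were Tyrobp, an adaptor of myeloid receptors, at -11.74, and Spi1, which encodes PU.1, at -10.17 (adjusted p = 0.000109 and 2.7e-05). Cebpe, a factor of granulocyte maturation, was at 6.01 to 73.9 CPM in HPs and had 2 UMIs or fewer in each stromal library. The part of the stromal digestion in these differences was not tested.

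Genes with the most similar pattern were found by Pearson correlation of log2(CPM + 10) over the clusters, which share libraries and depth. Over the 70 HP clusters, Csf1r was most like Cd68 (0.943), Cd300c2 (0.921) and Abca9 (0.913). Csf2rb2 was most like Lilr4b (0.917), Csf2rb (0.879) and Lilrb4a (0.852), and Csf2rb like Csf2rb2 (0.879), Gm14005 (0.849) and Fcgr3 (0.846). The beta chains were therefore among the closest of 4313 genes to each other. Csf2ra was most like Skap2 (0.854), Nfam1 (0.845) and Naip2 (0.826), and Csf3r like Mtus1 (0.859), Sort1 (0.815) and Fgd4 (0.813). Over all 135 clusters Csf1 was most like Nfkbia (0.675), Il6 (0.672) and Nfkbiz (0.651) of 6118 genes. These values include stroma, which alone was digested, and cannot be set beside those over HP clusters. None of these 3 genes stayed among the closest 3 to Csf1 by Spearman's rank correlation, and none of the 3 named for Csf2ra or for Csf3r did over clusters of at least 100 cells. Among the 6 genes over HP clusters, Csf1 correlated with Csf2rb2 at 0.737 and with Csf2rb at 0.653, and Csf2ra with Csf3r at 0.674 and with Csf1r at 0.63, while Csf2rb2 and Csf3r were at 0.0152.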

How the data were processed

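Transcript and antibody counts were analysed for the 9 libraries described above. Per the labels and the study's methods, the authors counted reads with Cell Ranger 3.1.0 on mm10 and processed them in R 4.0 with Seurat 3.1.5. Genes seen in fewer than 30 cells, shallow cells, cells with many mitochondrial UMIs and putative doublets (the cells highest in genes or UMIs) were removed by the authors. Contaminating blood cells were also taken out of the stromal data after sequencing, and the deposited stromal cells were fewer than the sequenced ones in the study's text. Whether the cells missing were blood cells is not given in the sources used here. No further doublet call was made. The authors deposited raw UMI counts per gene and cell, raw antibody counts and a cluster code per cell, and no normalized value was used.

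Counts were summed per library or per cluster and divided by the summed UMIs (CPM). Exact Poisson and Clopper-Pearson intervals of 95% cover counting error only. Shares of cells were taken after thinning each cell to 1000 UMIs without replacement. A count of 0 was read as a limit of 3 counts. Library sums of stroma and HPs were compared with edgeR 4.0.16 in R 4.3.3 (TMM, filterByExpr, quasi-likelihood F test, stage as covariate, Benjamini-Hochberg adjustment, threshold 0.05), and the fit was tested on simulated data. Sums, intervals and figures were made in Python 3.11.15 (numpy 2.4.6, scipy 1.17.1, pandas 2.3.3, matplotlib 3.10.9). Gene positions came from GENCODE vM21 on GRCm38.p6.

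The genes, the pathway and marker lists and the tests were chosen with earlier results of these data known. Named were the 6 genes, the other ligands and receptors, the 3 listed pathway genes with the largest change each way, for each gene the 3 highest clusters of at least 50 cells per stage and compartment, and the 3 genes most like each one among those with at least 100 CPM in a cluster. Alternatives changed the test (DESeq2 1.42.0), normalization, filter, covariate, libraries, denominator, cells, summary and thinning.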

Additional observations from a re-analysis of the deposited data

Results flagged for a closer look

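Csf1 was picked out because the difference between compartments changed direction with stage. The log2 ratio of stromal over HP CPM was -1.19 for E18.5, 0.213 for P0 and 3.89 for adult BM. Each of these ratios rests on 1 library per compartment, and the difference between stages was not tested. Of the E18.5 HP Csf1 UMIs, 65.4% came from the cluster Bas1, and the ratio without that cluster was not computed. At E16.5 the stromal library lay between both HP libraries.

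The CD115 antibody was picked out because its 3791 counts stand outside the transcript measurement and came from the second E16.5 HP library alone, with 0 counts in each of the other 8 libraries. Whether the antibody was in their panels is not given in the sources used here.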

How the results depend on the processing

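Depth and library number limit these data, since every stage but E16.5 in HPs had 1 library, and levels of a few UMIs carry wide intervals. No paired analysis was possible because the groups compared share fewer than 2 replicate numbers. Stage, which they do share, was a term of the fit, and leaving it out was 1 of the alternatives. All 6 genes kept their direction and their side of the threshold under all 10 alternatives of the fit, with log2 fold changes of 0.13 to 1.45 for Csf1, -8.16 to -6.76 for Csf1r, -1.68 to -1.28 for Csf2ra, -8.30 to -6.21 for Csf2rb, -6.15 to -4.38 for Csf2rb2 and -8.49 to -7.37 for Csf3r. The highest adjusted p among the 5 called genes was 0.047, for Csf2rb2. The number of genes lower in stroma was 4746. It was 3072 without the libraries of P0, 3164 without those of E18.5, 4590 without those of E16.5 and 4754 without the adult ones. Leaving out either E16.5 HP library gave 5896 and 5580 genes higher and 4934 and 4431 lower. For levels by library, leaving mitochondrial and ribosomal protein UMIs and Gm42418 out of the denominator moved 43 of 54 values beyond their interval (median ratio 1.45). A mean over cells moved 39, with ratios to the reported values from 0.615 to 2.41. Of the cluster values that mean moved 32 of 156, with ratios from 0.0801 to 1.73. For clusters, leaving out the first E16.5 library moved 8 of 18 values and leaving out the second 14 of 18. Of 192 comparisons of which cluster was highest, 181 kept it and 11 did not, among them those of Csf1, Csf2rb, Csf2rb2 and Csf3r in adult HPs without cells under 1000 UMIs (then the shallow cluster Stroma or Mast4ii) and 2 of Csf2ra in HPs with the smaller denominator. Without thinning, shares of cells had a median ratio of 5.98 to the thinned ones.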
